A study of Homo sapiens with 4 samples.

Results

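The mitotic spindle and checkpoint genes are 49 genes whose products build the spindle, condense the chromosomes, hold back anaphase until every kinetochore is attached, and divide the cell. They were taken by gene symbol and not by a measured value, though earlier results of these data were known when they were chosen. All 49 had a row among the 26364 symbols of the count table. Polysome-associated RNA was sequenced from HCT116, a human colorectal carcinoma line. Polysomes are mRNAs with several ribosomes on them, and more ribosomes make a polysome heavier. The 4 libraries were heavy polysomes (10 ribosomes or more) and light polysomes (9 or fewer) of HCT116 cells labelled Dicer1 knockout, and heavy and light polysomes of wild type HCT116 cells, with 1 library in each group. The heavy and light library of a genotype are called its gradient below. The labels give neither the altered part of DICER1 nor whether the knockout line is a single clone.

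Entry into mitosis is driven by CDK1 bound to a cyclin, which phosphorylates the proteins that reshape the nucleus and the cytoskeleton. The spindle assembly checkpoint then blocks CDC20, the activator of the anaphase-promoting complex, until chromosomes are attached, after which securin and cyclin B are destroyed and the chromosomes part. Most of these genes are transcribed late in the cell cycle, and their mRNAs are known to peak in G2 and M phase. DICER1, the gene named in the knockout label, encodes the enzyme that cuts microRNA precursors, and microRNAs lower the stability and translation of mRNAs they pair with.

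Many of the genes share letters just upstream of their starts. A pair of motifs known from late cell cycle promoters were searched on both strands, from 250 bases before to 50 after the start, in RefSeq windows of 300 bases (GRCh38.p14). The first was the cell cycle genes homology region (CHR), written TTTGAA or, on the opposite strand, TTCAAA. It is bound by the MuvB complex. The second was the CCAAT box, written CCAAT or ATTGG, which is bound by NF-Y. Adjoining matches can share a base, as in the windows of CDCA8 and MKI67, and each is counted. A window was at hand for 43 of the 49 genes. CHR letters were present in 31 of the 43 (72.1%), against 4212 of 27305 windows of all genes (15.4%). CCAAT letters were present in 32 of the 43 (74.4%), against 9747 of the 27305 (35.7%), and 24 of the 43 held both (55.8%), against 1661 of all (6.08%). Only the exact letters were counted, so a variant of either motif was taken as absent. The matches are a description of letters and do not show binding.

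The 110 bases before the start are shown for 6 genes, with CHR and CCAAT letters on either strand in capitals. They were picked after the matches were seen, from the 8 of 43 genes with CHR letters 10 to 40 bases before the start and CCAAT letters 20 to 50 bases further upstream (18.6%, against 0.158% of all windows), to show that mRNAs of opposite polysome position can have like promoter letters. CCNB2, PLK1, KIF11 and PRC1 lay toward heavy polysomes, and CKS1B and CKS2 toward light ones.
CCNB2 (chr15:59105036-59105145, plus strand): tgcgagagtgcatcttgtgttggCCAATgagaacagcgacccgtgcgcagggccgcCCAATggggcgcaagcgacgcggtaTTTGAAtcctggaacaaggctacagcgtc
PLK1 (chr16:23678779-23678888, plus strand): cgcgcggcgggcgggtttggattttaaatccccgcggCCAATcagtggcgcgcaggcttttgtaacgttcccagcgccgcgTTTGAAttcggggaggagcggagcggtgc
KIF11 (chr10:92593020-92593129, plus strand): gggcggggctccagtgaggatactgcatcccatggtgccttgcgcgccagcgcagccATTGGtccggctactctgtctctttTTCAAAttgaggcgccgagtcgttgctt
PRC1 (chr15:90994536-90994645, minus strand): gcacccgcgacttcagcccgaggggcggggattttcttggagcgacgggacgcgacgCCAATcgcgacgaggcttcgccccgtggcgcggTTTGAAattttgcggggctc
CKS1B (chr1:154974571-154974680, plus strand): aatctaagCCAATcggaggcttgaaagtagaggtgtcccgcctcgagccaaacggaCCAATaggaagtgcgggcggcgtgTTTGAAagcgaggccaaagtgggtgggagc
CKS2 (chr9:89311085-89311194, plus strand): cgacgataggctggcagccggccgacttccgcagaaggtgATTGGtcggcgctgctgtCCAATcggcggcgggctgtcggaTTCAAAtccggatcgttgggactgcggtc
In all 6 the CHR letters start 20 to 30 bases before the gene start, and the CCAAT letters lie upstream of them. Of the 31 genes with CHR letters, 24 had heavy calls and 2 light calls. The 12 genes without them had 9 heavy and 1 light calls. Over all genes tested, 30.0% had heavy calls and 29.3% light calls, in the fit described with the heavy to light comparison.

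**Figure D1:**
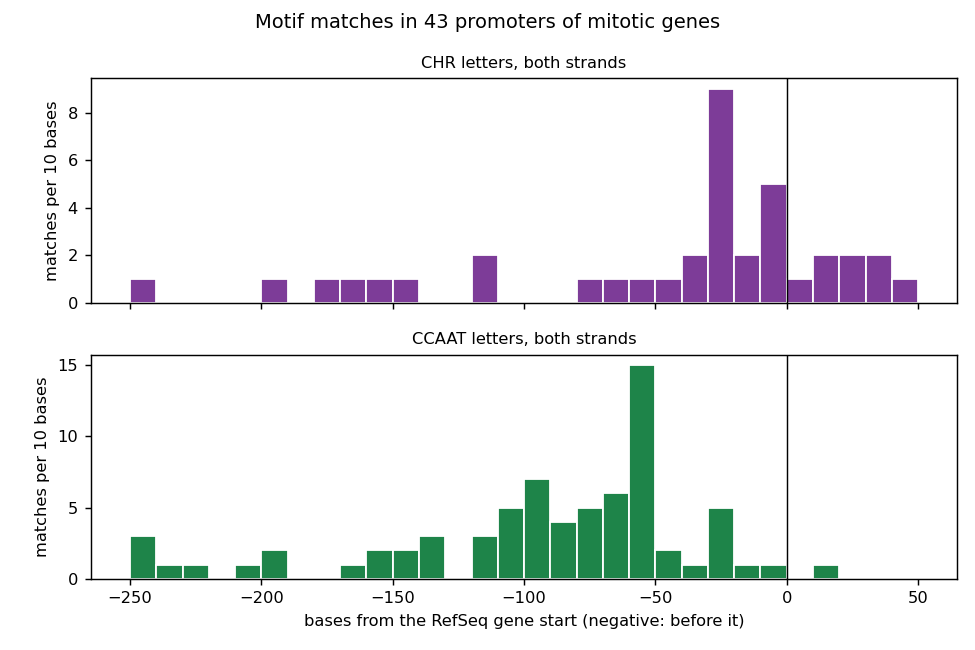
Positions of CHR letters (upper panel) and CCAAT letters (lower panel) in the promoter windows of 43 mitotic genes. The horizontal axis gives bases from the RefSeq gene start, the vertical axis the number of matches per 10 bases over both strands, and the CHR matches crowd just before the start while the CCAAT matches crowd further upstream.

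The libraries held 19238492 counts (labelled knockout heavy), 17457116 (labelled knockout light), 20933675 (wild type heavy) and 19727010 (wild type light). DICER1 had 925 and 889 counts in heavy and light polysomes labelled knockout, against 500 and 547 in the wild type, so its mRNA was higher under the knockout label. Such counts leave unknown whether a working enzyme is made, and each direction between the genotypes below rests on the label. Of 8 markers of colon epithelium, 7 had at least 50 counts in every library, and VIL1 had none. Of 16 markers of fibroblasts, endothelium and blood, COL1A1 was the only marker to reach 50 counts in every library.

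The mitotic genes were well covered. The lowest count of any of them in any library was 113, for SPC24 in heavy polysomes labelled knockout. The highest was 16365, for CCNB1 in the same library. Together they took 1.21% of all counts in heavy and 0.839% in light polysomes labelled knockout, against 1.07% and 0.612% in the wild type. The summed share was thus higher in the labelled knockout in both fractions and higher in heavy polysomes of both genotypes. The libraries hold polysome RNA only, and the cause of these differences was not tested. In cultures like these, for example, a larger share of cells in mitosis and more RNA per mitotic cell cannot be told apart.

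Per kilobase of transcript, averaged over the 4 libraries, the most abundant was PTTG1, the securin that guards the cohesin-cutting protease, at 459 CPM per kb (TMM-scaled CPM, the count relative to the scaled library size). CKS2, a small CDK-binding subunit, followed at 389.8 and UBE2C, a ubiquitin-conjugating enzyme of the anaphase-promoting complex, at 386. Next came the cyclin CCNB1 at 271 and CDC20 at 261 CPM per kb. The least abundant were SPC24, a kinetochore subunit, at 3.28, the kinesin KIF14 at 4.29, the kinetochore motor CENPE at 4.42 and ASPM, which focuses spindle poles, at 5.14 CPM per kb. The order depends on the GENCODE transcript taken as the length.

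**Figure D2:**
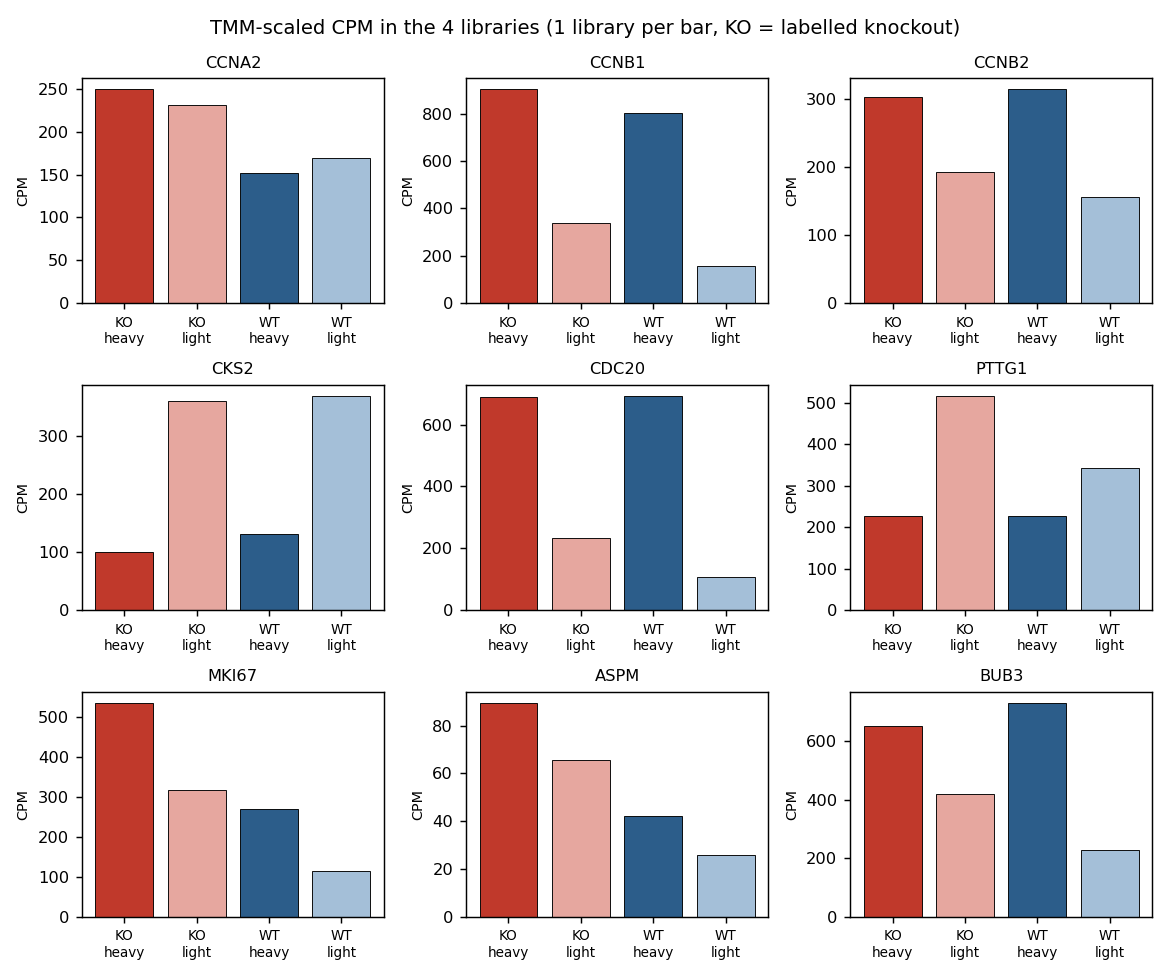
Level of 9 mitotic genes in each library, as TMM-scaled CPM (vertical axes start at 0 and differ between panels), with heavy left of light polysomes, the labelled knockout (KO) left of the wild type (WT), and 1 library per bar. CKS2 and PTTG1 were highest in light polysomes, CCNB1, CDC20 and BUB3 in heavy polysomes, and MKI67 and ASPM were higher in the labelled knockout in both fractions.

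The first comparison set heavy against light polysomes over both gradients, and most mitotic mRNAs lay toward the heavy end. Of the 49 genes, all of which passed the filter on low counts, 36 had a call toward heavy polysomes and 5 toward light ones, with 8 not called (edgeR quasi-likelihood test, adjusted p under 0.05 over 13574 genes). The background over the 13574 genes was 30.0% heavy calls and 29.3% light calls. The median fitted log2 heavy to light ratio of the 49 was 1.15, against -0.07 over all genes, so the mitotic median lay 1.21 above it. The test takes the knockout and wild type gradients as replicates of the fraction contrast, with a term for the gradient (the gradient block). With 1 residual degree of freedom, the spread behind its p-values is the disagreement between the gradients pooled over all genes. A single p-value, or the SE printed with a ratio, therefore does not measure how well the gradients agreed for that gene. The labels name no replicate culture of either genotype. In both gradients, 39 of the 49 had a heavy to light ratio above 0 and 8 had one below 0. In each gradient taken alone 40 of the 49 were above 0, against 5753 (labelled knockout) and 5578 (wild type) of 10834 genes.

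**Figure D3:**
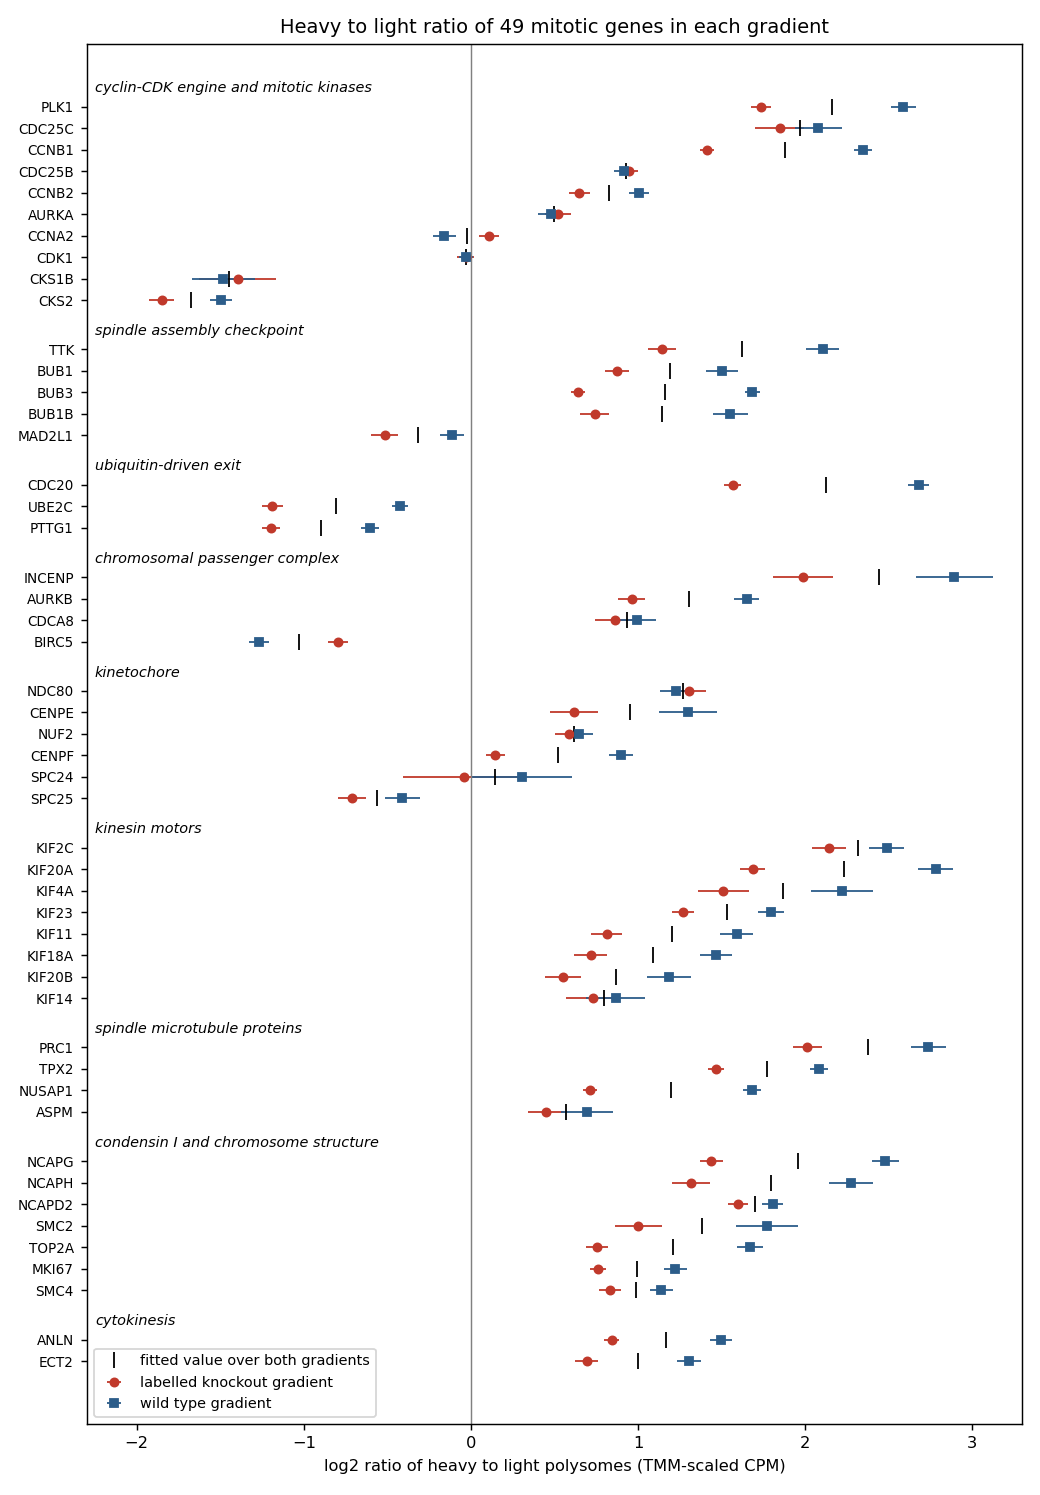
Log2 ratio of heavy to light polysomes (horizontal axis, TMM-scaled CPM) for 49 mitotic genes grouped by role. Circles give the labelled knockout gradient and squares the wild type gradient, each with its 95% counting interval, and black ticks the fitted value over both; kinesins and condensin genes lie right of 0 in both gradients, and the small proteins CKS1B, CKS2, BIRC5, UBE2C and PTTG1 lie left of 0 in both.

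The mitotic cyclins and their partners were spread over the whole range. CCNB1, the main mitotic cyclin (chr5:69167135-69178245 of GRCh38, plus strand), had 16365 counts in heavy and 6240 in light polysomes labelled knockout, and 15180 in heavy and 3471 in light polysomes of the wild type. Both heavy values stood above both light ones, and the fitted log2 ratio was 1.88 (SE 0.33, edgeR adjusted p = 9.16e-08). CCNA2, the cyclin of S phase and early mitosis (chr4:121816444-121823883, minus strand), had 4522 in heavy and 4258 in light polysomes labelled knockout, and 2874 in heavy and 3738 in light polysomes of the wild type. Here heavy and light values overlapped, and the fitted ratio was -0.03 (SE 0.29, adjusted p = 0.947). The coding sequences of these cyclins are nearly of one length, 1302 nucleotides for CCNB1 and 1299 for CCNA2. CCNB2, a related mitotic cyclin of 1197 coding nucleotides, lay between them at 0.83 (adjusted p = 0.0117). The differences between these genes were not tested.

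CDK1, the kinase that the cyclins activate, had 6352 counts in heavy and 6592 in light polysomes labelled knockout, and 7846 in heavy and 9330 in light polysomes of the wild type. Its fitted ratio of -0.03 was not called (edgeR adjusted p = 0.938). Of the phosphatases that switch CDK1 on, CDC25C at 1.97 and CDC25B at 0.93 were called toward heavy polysomes. Their relative CDC25A, which is outside the 49, was not called at 0.16 (edgeR adjusted p = 0.614). The kinase PLK1, which matures centrosomes, stood at 2.16 (adjusted p = 2.78e-10), while AURKA, a spindle pole kinase, was not called at 0.50 (adjusted p = 0.116). At the other end were the CDK-binding subunits CKS1B and CKS2. CKS2 (chr9:89311195-89316703, plus strand) had 1808 counts in heavy and 6619 in light polysomes labelled knockout, and 2477 in heavy and 8145 in light polysomes of the wild type. Its fitted ratio of -1.67 (SE 0.30, edgeR adjusted p = 3.39e-07) was the lowest of the 49, and CKS1B followed at -1.45.

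Checkpoint genes were called toward heavy polysomes in 4 of 5 cases, against 30.0% of all genes tested. TTK, the kinase that starts checkpoint signalling, stood at 1.62, the kinase BUB1 at 1.19, BUB3, a kinetochore adaptor, at 1.16 and BUB1B, part of the inhibitor of CDC20, at 1.15. MAD2L1, which locks onto CDC20, was not called, at -0.32 (edgeR adjusted p = 0.334). The BUB1 call was lost without the gradient block (adjusted p = 0.0670). BUB3 had 11840 counts in heavy and 7713 in light polysomes labelled knockout, and 13849 in heavy and 5018 in light polysomes of the wild type. BUB3 encodes a short protein of 987 coding nucleotides, and all genes of over 500 and up to 1000 coding nucleotides had a median of -0.52.

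The 3 genes of ubiquitin-driven exit split. CDC20 had 12464 counts in heavy and 4273 in light polysomes labelled knockout, and 13108 in heavy and 2381 in light polysomes of the wild type. Its fitted log2 ratio was 2.12 (SE 0.33, edgeR adjusted p = 1.43e-09). PTTG1 had 4091 in heavy and 9510 in light polysomes labelled knockout, and 4280 in heavy and 7571 in light polysomes of the wild type. Its light values exceeded its heavy values in both gradients, with a fitted ratio of -0.90 (adjusted p = 0.00745), and UBE2C went the same way at -0.81 (adjusted p = 0.0162). The UBE2C call was lost without the gradient block (edgeR adjusted p = 0.104). PTTG1 and the kinesin KIF4A have near-identical copies elsewhere in the genome, so their counts are uncertain.

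Subunits of one complex could lie far apart. In the chromosomal passenger complex, which corrects faulty kinetochore attachments, the scaffold INCENP had 1220 counts in heavy and 311 in light polysomes labelled knockout, and 1097 in heavy and 170 in light polysomes of the wild type. INCENP had the highest fitted ratio of the 49, 2.44 (SE 0.28, edgeR adjusted p = 3.28e-16). BIRC5, the small subunit survivin, had 3511 in heavy and 6177 in light polysomes labelled knockout, and 2940 in heavy and 8241 in light polysomes of the wild type, with a fitted ratio of -1.03 (adjusted p = 0.00178). The kinase AURKB stood at 1.31 and CDCA8, known as borealin, at 0.93, both called heavy. In the Ndc80 complex, which holds the microtubule at the kinetochore, the longer subunits NDC80 (1.27) and NUF2 (0.62) were called heavy. The NUF2 call (edgeR adjusted p = 0.0447) was lost with library totals (ratio 0.38, adjusted p = 0.196), without a filter on low counts (adjusted p = 0.0597) and without the gradient block (adjusted p = 0.0952). The short subunits SPC24 (0.14, adjusted p = 0.672) and SPC25 (-0.56, adjusted p = 0.0656) were not called, though SPC25 was called light with library totals (adjusted p = 0.00617).

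All 8 kinesins, motors that slide or shorten spindle microtubules, were called toward heavy polysomes, against 30.0% of all genes tested. They ran from KIF14 at 0.80 to KIF2C, which takes microtubules apart at their ends, at 2.32, with the midzone motor KIF20A at 2.23 and KIF11, which pushes spindle poles apart, at 1.20. KIF14 lost its call with library totals (edgeR adjusted p = 0.0583), and KIF14 and KIF20B lost theirs without the gradient block (adjusted p = 0.0648 and 0.103). All 7 genes of condensin I and chromosome structure were called heavy too. The condensin subunits were NCAPG at 1.96, NCAPH at 1.80, NCAPD2 at 1.70, SMC2 at 1.38 and SMC4 at 0.99. With them were TOP2A, the topoisomerase that untangles chromosomes, at 1.21 and MKI67, the coat protein of mitotic chromosomes, at 0.99. Without the gradient block MKI67 lost its call (edgeR adjusted p = 0.165). NCAPG shares 33.7% of its exon length with LCORL and SMC4 shares 19.0% with TRIM59, both on opposite strands, so without the strand setting reads from these stretches cannot be assigned.

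Among spindle microtubule proteins, PRC1, which bundles the midzone, stood at 2.37, TPX2, which activates AURKA on the spindle, at 1.77 and the bundling protein NUSAP1 at 1.20, all called heavy. In GENCODE 44, 81.4% of the exon length of NUSAP1 and 57.6% of that of PRC1 also belong to a further gene model of the same strand, and 34.3% of PRC1 lies opposite PRC1-AS1. ASPM had 1621 counts in heavy and 1207 in light polysomes labelled knockout, and 795 in heavy and 571 in light polysomes of the wild type. Its ratio of 0.57 just missed the threshold (edgeR adjusted p = 0.0530) and passed it with RLE size factors (adjusted p = 0.0457) and DESeq2 (adjusted p = 0.0469). The cytokinesis genes ANLN, the anillin of the contractile ring, and ECT2, which is needed for cleavage furrow formation, were called heavy at 1.17 and 0.998. Without the gradient block NUSAP1 and ANLN lost their calls (edgeR adjusted p = 0.0517 and 0.0952).

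The median ratio of the mitotic genes was higher in each longer class up to 2500 coding nucleotides and lower beyond. The 3 genes with up to 500 coding nucleotides had a median fitted log2 ratio of -1.45, against -1.23 for the 1026 genes of that length in the whole table. Over 500 and up to 1000 nucleotides the 8 mitotic genes had a median of -0.17, against -0.52 for 2839 genes. Over 1000 and up to 1500 nucleotides the 9 mitotic genes had a median of 1.20, against 0.00 for all 2862 such genes. Over 1500 and up to 2500 nucleotides the 7 mitotic genes had a median of 1.80, against 0.42 for 3211 genes. Over 2500 and up to 5000 nucleotides these medians were 1.21 for 17 mitotic genes and 0.77 for 2054 genes. Above 5000 nucleotides they were 0.87 for 5 mitotic genes and 0.91 for 569. The giant coding sequences of ASPM (10434 nucleotides), MKI67 (9771), CENPF (9345) and CENPE (8106) thus had lower ratios than many mRNAs of medium length. CENPF, a kinetochore and nuclear matrix protein, was not called at 0.52 (edgeR adjusted p = 0.118), while CENPE was called at 0.95, a call lost without the gradient block (adjusted p = 0.0739). Across the 49 genes Spearman's rank correlation between coding length and the ratio was 0.386 and Pearson's r on log2 length 0.582. Across 12561 tested genes with a coding length they were 0.548 and 0.543. All points share the same 4 libraries, and these values are descriptions.

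**Figure D4:**
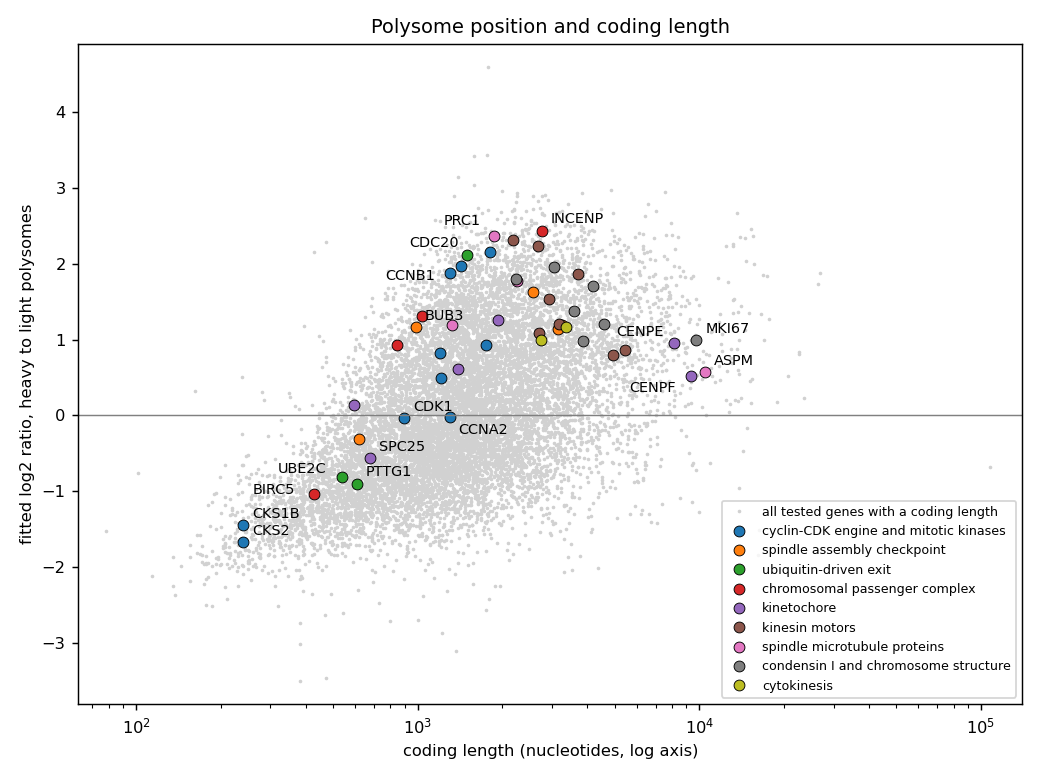
Fitted log2 ratio of heavy to light polysomes (vertical axis) against coding length in nucleotides (horizontal log axis). Coloured points are the 49 mitotic genes by role and grey points all tested genes with a coding length; CCNB1 and CCNA2 stand at the same length with ratios of 1.88 and -0.03, and the 4 longest mitotic genes stand between 0.52 and 0.99.

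The second comparison was between the genotypes, fraction by fraction, with 1 library on each side and therefore no test and no replicate check. Intervals are 95% counting intervals and cover counting error only. In light polysomes 42 of the 49 genes were higher in the labelled knockout, against 5536 of 10992 genes. The median log2 ratio of the 49 was 0.73, against 0.00 over all genes. At least 2-fold higher were 13 of the 49 and lower none, against 3.91% and 3.05% of the 10992 genes that reached 100 counts in either library of the pair. At 1.5-fold the counts were 27 higher and 0 lower, against 14.3% and 11.3%.

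In heavy polysomes the same genes stood much closer to equal. The median log2 knockout to wild type ratio was 0.12, against -0.04 over all genes, with 30 genes above 0 and 19 below. At least 2-fold higher was 1 gene, ASPM, and lower none, against 3.26% and 2.60% of 10690 genes. At 1.5-fold 6 genes were higher and 2 lower, UBE2C and SPC24, against 10.8% and 9.93%, so neither share stands far from that of all genes. Over both fractions, 29 genes were higher in both pairs, 6 were lower in both, 13 were higher in light and lower in heavy polysomes, and BIRC5 alone went the other way.

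Among single genes, MKI67 had 9719 counts in heavy and 5827 in light polysomes labelled knockout, against 5099 in heavy and 2544 in light polysomes of the wild type. Its log2 ratios were 0.99 in heavy (0.94 to 1.04) and 1.46 in light polysomes (1.39 to 1.52). ASPM stood at 1.09 (0.97 to 1.21) and 1.34 (1.19 to 1.48), and ANLN at 0.76 (0.72 to 0.81) and 1.42 (1.35 to 1.48). These genes were higher in both fractions. BUB1 stood at 0.64 and 1.27, and CCNA2 at 0.72 in heavy and 0.45 in light polysomes.

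Others stood apart in light polysomes while their heavy values were close. CDC20 had a log2 ratio of -0.01 in heavy (-0.04 to 0.03) and 1.10 in light polysomes (1.03 to 1.18). TTK stood at 0.02 and 0.98, TOP2A at 0.07 and 0.98, and CCNB1 at 0.17 and 1.11. KIF20A, with a ratio in both fractions (0.34 and 1.43), had 5930 counts in heavy and 1870 in light polysomes labelled knockout, against 4906 in heavy and 830 in light polysomes of the wild type.

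Lower in both pairs were CDK1, at -0.24 in each, and CKS1B, at -0.42 in heavy (-0.67 to -0.16) and -0.50 in light polysomes (-0.66 to -0.35). CKS2, UBE2C, SPC24 and NDC80 were the other genes below 0 in both, though the interval in 1 fraction reached 0 for CKS2, SPC24 and NDC80. UBE2C had the lowest ratio of the 49 in heavy polysomes, -0.85 (-0.91 to -0.78), with 2893 counts in the labelled knockout, against 5443 in the wild type.

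**Figure D5:**
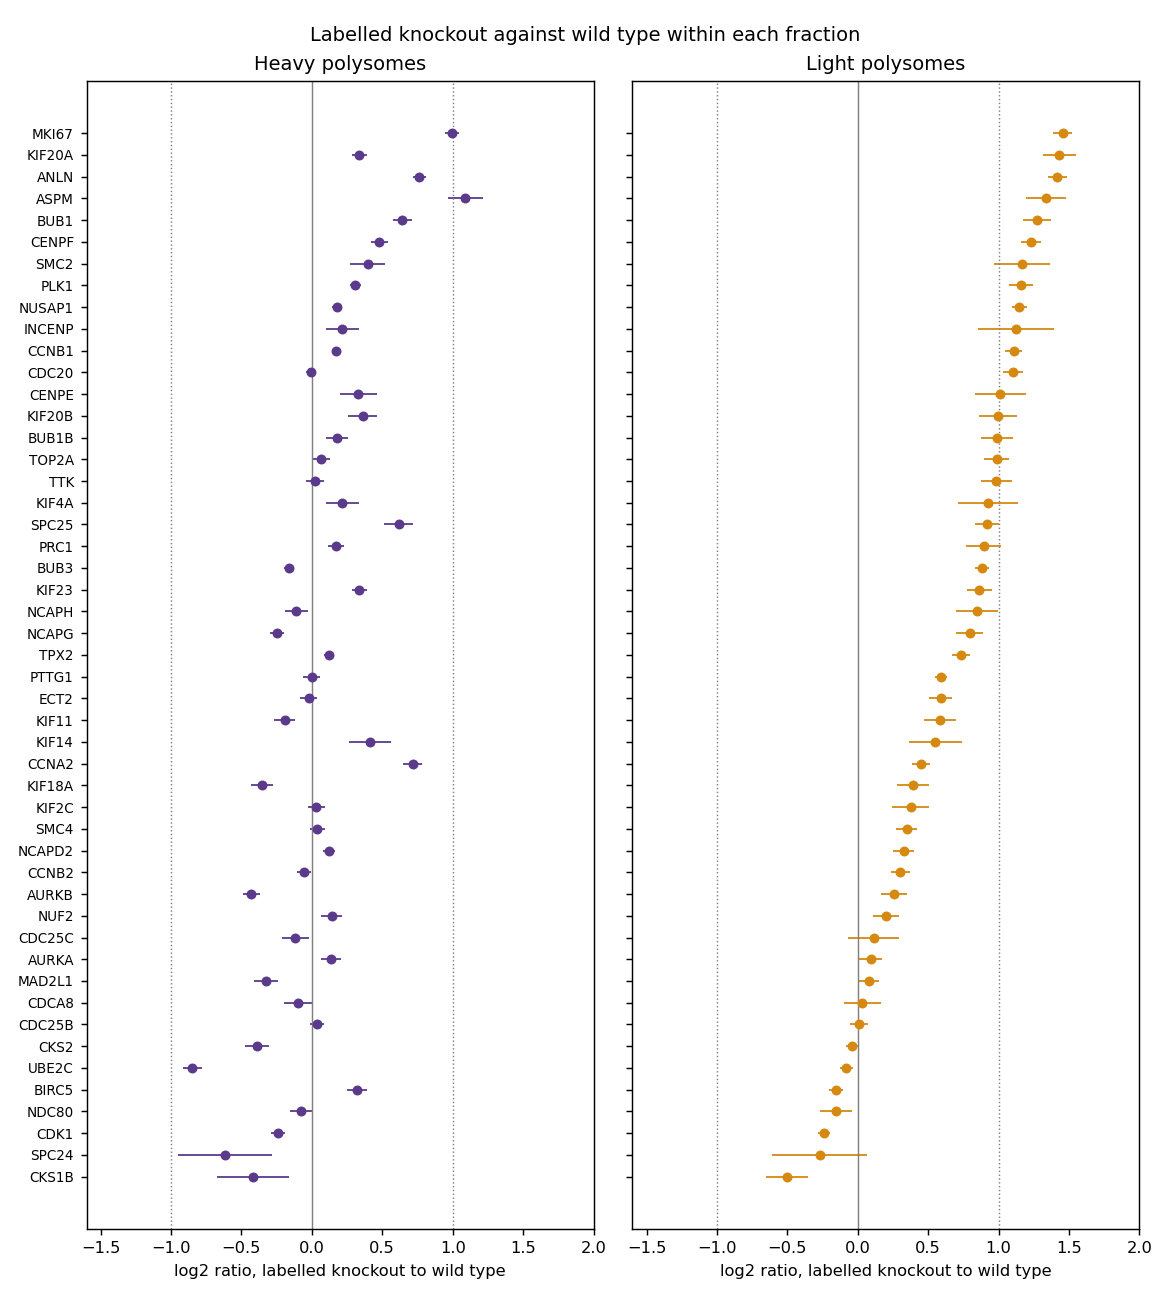
Log2 knockout to wild type ratio, by label (horizontal axes) for 49 mitotic genes in heavy (left) and light polysomes (right), ordered by the value in light polysomes. Bars are 95% counting intervals, dotted lines mark 2-fold, and each point rests on 1 library per genotype; 42 genes lie right of 0 in light polysomes and 30 in heavy polysomes.

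These ratios were higher for longer coding sequences. Across the 49 genes Spearman's rank correlation with coding length was 0.571 in heavy and 0.638 in light polysomes, against 0.198 and 0.158 across 10604 genes. The 5 mitotic genes above 5000 coding nucleotides had a median of 0.48 in heavy polysomes and of 1.23 in light polysomes. All genes of that length had 0.24 and 0.35. The 3 genes up to 500 nucleotides had medians of -0.39 and -0.15, against -0.18 and -0.13 for all such genes.

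The third comparison asked whether the genes sat differently between the fractions of each genotype. The shift subtracts the wild type log2 heavy to light ratio from that under the knockout label, and a negative value means a smaller lean toward heavy polysomes in the labelled knockout. It was negative in 43 of the 49 genes, against 5797 of 10834 genes. The median shift was -0.61 for the 49, against -0.05 over all genes. The median heavy to light ratio of the 49 was 0.76 in the labelled knockout gradient and 1.46 in the wild type gradient. At least 2-fold lower were CDC20 (-1.11), KIF20A (-1.09), BUB3 (-1.04) and NCAPG (-1.04), and none was 2-fold higher, against 2.37% lower and 0.905% higher of 10834 genes. At 1.5-fold 27 were lower and 0 higher, against 15.3% and 10.5%. The count of 4 fell to 0 with scaling by library totals and was 8 with RLE size factors. The median of the 49 stayed 0.56 below that of all genes under both.

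Shift by role was uneven. All 5 checkpoint genes (median -0.81), all 8 kinesins (-0.67) and all 7 condensin and chromosome genes (-0.77) were negative, against 5797 of 10834 genes. The cyclin and kinase group had a median of -0.12. Positive shifts were those of BIRC5 (0.47, 0.39 to 0.56), CCNA2 (0.27, 0.18 to 0.36), CKS1B, NDC80, AURKA and CDC25B, and the intervals of the last 4 included 0.

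The shift of all genes differed by their fitted heavy to light ratio. Among all 2037 genes with a fitted heavy to light ratio between 1 and 2, the median shift was -0.47, and in the 20 mitotic genes of that range it was -0.76, with 17 of the 20 below -0.47. Between 0 and 1 the medians were -0.12 for 3197 genes and -0.33 for 14 mitotic genes. From 2 upward they were -0.72 for 403 genes and -0.88 for 6 mitotic genes. On the light side the mitotic medians also lay below those of all genes, but they did not keep the order of all genes over the ranges. Between -1 and 0 the median was -0.35 for 6 mitotic genes, with 5 of the 6 below the class median, against 0.21 for 3650 genes. Below -1 it was 0.09 for 3 mitotic genes, against 0.24 for 1547 genes. In light polysomes the labelled knockout to wild type ratio followed the same order, with a median of 0.38 for all genes between 1 and 2 and of 0.87 for the mitotic genes there. Over all 10834 genes the quartiles of the heavy to light ratio were -0.57 and 0.79 in the labelled knockout gradient, against -0.78 and 1.06 in the wild type gradient, and the part of this in the shift was not tested. The ranges were set by the same libraries as the shift.

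MicroRNA pairing letters were looked for because the label names DICER1. A microRNA pairs through its seed, bases 2 to 8, shown in capitals for let-7a, whose RefSeq mature sequence is
hsa-let-7a-5p: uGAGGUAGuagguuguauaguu
The matching letters CTACCTC were present in the 3′ UTR of the GENCODE transcript in 4 of the 49 genes (8.16%), against 1387 of 12523 tested genes (11.1%). The 4 sites are given with the 15 bases before and 1 after them, the seed match in capitals.
CDC25B: cctgcgccagtcctgCTACCTCc
AURKA: ataggaacacgtgctCTACCTCc
AURKB: tcccttatctgttttCTACCTCc
CDCA8: ccatgtcttgctcttCTACCTCc
In light polysomes the log2 knockout to wild type ratio was 0.01 for CDC25B, 0.09 for AURKA, 0.26 for AURKB and 0.03 for CDCA8, all below the median of 0.85 of the 45 genes without the letters. In heavy polysomes these ratios were 0.04, 0.14, -0.43 and -0.10, against a median of 0.12. No pairing was measured.

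Seed matches of 4 further microRNAs were also no more frequent than in all genes. Those of miR-17-5p were present in 8 of the 49 (16.3%, against 24.8% of all tested genes), and those of miR-16-5p in 6 (12.2%, against 24.8%). Those of miR-24-3p and of miR-34a-5p were present in 2 each (4.08%, against 17.7% and 17.6%). Their 3′ UTRs were shorter, with a median of 720 nucleotides, against 1306 over all tested genes. Genes with a miR-17-5p match had median ratios of 0.23 in heavy and 0.57 in light polysomes, against 0.07 and 0.79 for those without, and genes with a miR-16-5p match 0.13 and 0.86, against 0.12 and 0.59.

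Other genes of mitosis, 125 in 5 lists apart from the 49, were read from the same fit. Toward heavy polysomes 55 were called and toward light 27, with 43 not called, against 30.0% heavy and 29.3% light calls over all genes. Their median fitted log2 ratio was 0.42, against -0.07 over all genes. Of 36 centrosome and spindle assembly genes, 25 had heavy and 3 light calls, with the motors KIFC1 at 2.41 and KIF22 at 2.32, and with PLK4, the kinase of centriole duplication, at -0.99 and HAUS2, an augmin subunit, at -0.83. Of 19 cohesin, separase and condensin II genes, 12 had heavy and 2 light calls, with the separase ESPL1 at 2.14 and NCAPD3 at 1.67, and with ESCO1 at -0.94 and the cohesin protector SGOL1 at -0.60. Of 30 kinetochore and centromere genes, 6 had heavy and 10 light calls, with MAD1L1 at 2.28 and ZW10 at 1.99, and with the centromeric histone CENPA at -1.84 and CENPW at -1.78. Neither count lies far from what the 30.0% and 29.3% of all genes give in 30 genes.

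Of 18 anaphase-promoting complex genes, 7 had heavy and 8 light calls (4 heavy with library totals). ANAPC2, its cullin, stood at 2.41 and CDC23 at 2.06, while the small subunits ANAPC16 and ANAPC13 stood at -1.77 and -1.55. Of 22 genes of mitotic entry, exit and cytokinesis, 5 had heavy and 4 light calls, with RACGAP1 at 1.79 and CCNF at 1.13, and with the small phosphatase inhibitors ARPP19 at -1.42 and ENSA at -1.30. The shares of calls in the entry, exit and cytokinesis list lie below the 30.0% and 29.3% of all genes. In this fit both the heavy and the light share of the anaphase-promoting complex list lie above them. None of these shares was tested against that of all genes. All these values come from the same edgeR fit at an adjusted p under 0.05. Without the gradient block SGOL1 lost its call (adjusted p = 0.0923). MAD1L1 shares 43.2% of its exon length with a gene model of its own strand, and ANAPC13 shares 19.3% with CEP63 of the opposite strand.

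Between the genotypes the 125 genes had median log2 knockout to wild type ratios of -0.01 in heavy and 0.14 in light polysomes, against 0.12 and 0.73 for the 49. At least 2-fold higher were 1 of 123 in heavy and 5 of 125 in light polysomes, and 1 was 2-fold lower in each. Over all genes 3.26% were higher and 2.60% lower in heavy polysomes, and 3.91% higher and 3.05% lower in light polysomes, so these counts are near or under the background. The highest means over both pairs were those of SMC1A, a cohesin subunit (0.43 in heavy and 1.24 in light polysomes), and CENPC, which anchors the kinetochore to the centromere (1.11 and 0.44). The lowest were those of ANAPC16 (-1.01 and -1.22) and BOD1 (-0.72 and -0.90).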

How the data were processed

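RNA from heavy and light polysomes of HCT116 cells was sequenced. The authors deposited whole-number read counts per gene symbol, and CASAVA, STAR, HTSeq and the build hg19 are named per the submitters' processing notes; tool versions, gene annotation and strandedness of counting: not given in the sources used here. Annotation came from GENCODE release 44 (GRCh38), with 23035 symbols matched directly and 1437 through older symbols.

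For heavy against light polysomes, edgeR 4.0.16 (R 4.3.3) fitted all genes, with TMM scaling, filterByExpr, a quasi-likelihood test, the gradient as a block, 1 residual degree of freedom and Benjamini-Hochberg adjustment. The prior degrees of freedom were infinite, so no gene had a spread of its own. Each SE is the size of the log2 ratio divided by the square root of the F statistic of the test. The check of the fit on simulated data used a fixed seed. Between genotypes no test was possible: log2 ratios of TMM-scaled CPM (prior count 2) are given with 95% counting intervals, counted at 2-fold where the higher library reached 100 counts, and shifts where each of the 4 libraries reached 50 and the interval left out 0. No molecular identifiers are named in the labels, so intervals cover counting error only. All 49 genes were free to be named; in the 5 other lists, the 2 highest and 2 lowest called ratios were. For the genotypes, the 2 highest and 2 lowest means over both pairs in those lists were named. CDC25A was named in addition, as the relative of CDC25B and CDC25C. The genes, lists and rules were chosen with earlier results of these data known. DESeq2 1.42.0 served as an alternative; other work used Python 3.11.15, pandas 2.3.3 and scipy 1.17.1.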

Additional observations from a re-analysis of the deposited data

Results flagged for a closer look

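In these genes the direction in 1 genotype or fraction was opposite to that in the other, each with a counting interval that excluded 0. With 1 library per group the differences were not tested. CCNA2 had a log2 heavy to light ratio of 0.11 in the labelled knockout gradient and of -0.16 in the wild type gradient.

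The log2 knockout to wild type ratio was below 0 in heavy and above 0 in light polysomes for 8 genes. These values were -0.056 and 0.30 for CCNB2, -0.16 and 0.88 for BUB3, -0.33 and 0.08 for MAD2L1, and -0.43 and 0.26 for AURKB. They were -0.19 and 0.58 for KIF11, -0.36 and 0.39 for KIF18A, -0.25 and 0.79 for NCAPG, and -0.11 and 0.85 for NCAPH. BIRC5 was the gene with the opposite order, 0.32 in heavy and -0.15 in light polysomes.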

How the results depend on the processing

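Under every alternative with a test, the counts of the 49 genes called toward heavy (36) and light polysomes (5) stayed within 1.5 times. With the gradient pairing (no replicate numbers are in the labels) left out of the fit, 9 of the 41 calls were lost (BUB1, UBE2C, NUF2, CENPE, KIF20B, KIF14, NUSAP1, MKI67 and ANLN), the median was 1.07, and calls over all genes numbered 2857 heavy and 2183 light, against 4074 and 3977. NUF2 and KIF14 were lost and SPC25 gained with library totals, NUF2 was lost without a filter, CCNB2, UBE2C and NUF2 at an adjusted p of 0.01, and ASPM was gained with RLE size factors and DESeq2. The knockout gradient alone gave a median of 0.76 and the wild type gradient alone 1.46, with no test. Library totals moved the median of all genes to -0.30, against -0.07, and the heavy share of calls to 38.9%, against 50.6%.

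Genes that were not called changed sign near 0: SPC24 with library totals (-0.0954), CDK1 with RLE size factors (0.0038) and DESeq2 (0.0334), and CCNA2 with RLE size factors (0.0094), no filter (0.0018), no gradient pairing (0.0011) and DESeq2 (0.039). Heavy calls of the anaphase-promoting complex list were 4 with library totals and 4 without the pairing, against 7, and light calls without it were 1 for cohesin genes, against 2, and 2 for entry and exit genes, against 4. Between genotypes in heavy polysomes, 2 genes were 2-fold higher with library totals and 2 with RNA45S5 left out, against 1. At 1.5-fold, 6 were higher and 2 lower in heavy polysomes, 27 were higher in light polysomes and 27 shifts were lower. The 2-fold lower shifts were 0 with library totals and 8 with RLE size factors, against 4, and the median shift was -0.47 with library totals, against -0.61. The cause of these changes was not tested.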
